A study of Mus musculus with 14 samples.

Results

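H3K9me3 domains that were wide in mouse LEPC cells overexpressing miR-93-5p and were also marked in the scr control numbered 1251 of the 25879 H3K9me3 peaks listed for miR-93-5p. A domain is a miR-93-5p peak at least 3000 bp wide that overlapped a scr H3K9me3 peak by at least 1 bp and no scr H3K4me3 peak. Of the 25879 peaks, 1507 were wide, 1333 of these overlapped a scr H3K9me3 peak, 82 of those were dropped for a scr H3K4me3 peak, and 174 wide peaks had no scr H3K9me3 peak. The 9644 shared peaks under 3000 bp with no scr H3K4me3 peak, called narrow shared peaks here, stand beside the domains below.

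H3K9me3 is the trimethylated lysine 9 of histone H3 and marks silent heterochromatin. At euchromatic sites it is laid down mainly by SETDB1, which TRIM28 brings to DNA sites bound by KRAB zinc finger proteins, and HP1 proteins bind it. Known sites in mouse cells are transposon copies, the last coding exons of KRAB zinc finger genes and the methylated allele of imprinted control regions, where ZFP57 binds methylated DNA. H3K4me3 marks active promoters and H3K27me3 is the Polycomb mark of silent developmental genes.

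LEPC is a mouse cell line (strain C57BL/6, 3 passages), and the groups used here are cells overexpressing miR-93-5p, cells overexpressing a mutant miR-93-5p, with RNA-seq only here, and the scr control. How the microRNA was delivered, and whether a line is 1 clone, is not given in the sources used here. The series holds 14 samples, with 1 library for each assay and condition, so the values below compare single libraries, with no replicate error and no test. The 6 peak lists and the 3 RNA-seq libraries were used, and the 2 input samples were not analysed here.

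The peak lists differed in extent. H3K9me3 peaks covered 39.24 Mb in miR-93-5p and 21.56 Mb in scr (15888 peaks), with median widths of 1261 and 1138 bp. H3K27me3 covered 23.68 Mb in miR-93-5p and 60.01 Mb in scr, and H3K4me3 39.97 and 36.90 Mb. Read depth is not given in the sources used here, and its part in these extents was not tested. The epithelial keratin gene Krt8 had 230 FPKM in miR-93-5p, 283 in mutant and 658 in scr RNA-seq, and Krt18 had 200, 253 and 306. Krt19 had 418 and 522 in miR-93-5p and mutant and no matched locus in scr. The bile duct markers Spp1 and Sox9 were higher in miR-93-5p than in scr, with 1076 FPKM in miR-93-5p, 1077 in mutant and 531 in scr for Spp1 and 11.1, 6.91 and 8.22 for Sox9. Of the same list of liver epithelium and progenitor markers, Epcam had 0.840 FPKM in scr and no matched locus in miR-93-5p or mutant. Alb had 1.08 FPKM in mutant, 1.30 in scr and no matched locus in miR-93-5p. The hepatocyte regulator Hnf4a had 7.22, 27.4 and 40.6 FPKM in miR-93-5p, mutant and scr. No RNA-seq locus matched Ptprc, Pecam1 or Col1a1, markers of leukocytes, endothelium and fibroblasts.

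Sequences are shown for the microRNA and for promoters of genes whose start lay in a domain, because imprinted control regions that carry H3K9me3 are known to hold the ZFP57 motif TGCCGC. They are from RefSeq on GRCm38.p6, and a promoter is 250 bases before to 50 after a gene's start. The mature microRNA is shown with its seed, bases 2 to 8, in capitals, at chr5:138165574-138165596 on the minus strand. In the promoters capitals mark TGCCGC or, for a motif on the other strand, GCGGCA. Plagl1 is at chr10:13090582-13090881 on the plus strand, Nap1l5 at chr6:58907077-58907376 on the minus strand and Zfp445 at chr9:122865957-122866256 on the minus strand. Plagl1 and Nap1l5 are imprinted genes, and Zfp445 encodes a regulator of imprinting. Nap1l5 and Zfp445 were chosen after their values were seen.
mmu-miR-93-5p: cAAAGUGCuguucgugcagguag
Plagl1: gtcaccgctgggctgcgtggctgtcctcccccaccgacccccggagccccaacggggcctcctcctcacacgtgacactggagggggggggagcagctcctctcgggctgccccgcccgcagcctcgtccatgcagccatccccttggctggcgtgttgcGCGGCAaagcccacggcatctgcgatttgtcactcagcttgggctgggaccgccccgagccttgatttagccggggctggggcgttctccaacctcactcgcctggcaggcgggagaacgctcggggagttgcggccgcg
Nap1l5: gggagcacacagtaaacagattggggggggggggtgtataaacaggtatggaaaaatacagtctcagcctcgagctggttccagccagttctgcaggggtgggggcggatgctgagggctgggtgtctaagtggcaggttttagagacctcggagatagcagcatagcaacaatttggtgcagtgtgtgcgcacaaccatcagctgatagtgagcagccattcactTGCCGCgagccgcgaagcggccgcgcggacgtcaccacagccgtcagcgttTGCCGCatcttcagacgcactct
Zfp445: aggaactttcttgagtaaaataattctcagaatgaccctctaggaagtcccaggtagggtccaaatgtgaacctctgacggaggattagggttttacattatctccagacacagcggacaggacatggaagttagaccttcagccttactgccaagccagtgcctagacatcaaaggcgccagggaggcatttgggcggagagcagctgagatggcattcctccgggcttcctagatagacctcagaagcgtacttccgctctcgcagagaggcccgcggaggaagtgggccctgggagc

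The Plagl1 promoter held 1 motif and 26 CpG dinucleotides, the Nap1l5 promoter 2 motifs and 17 CpG, and the Zfp445 promoter 0 motifs and 10 CpG. The 88 genes whose start lay in a domain had 111 promoters in the table, of which 23 (20.7%) held the motif on either strand, against 11.6% of all 32851 promoters. Their median number of CpG was 20 and that of all promoters 7, and promoters of like CpG number were not compared. Of the 9 promoters of zinc finger genes among them, 0 held the motif. The 111 are all listed promoters of these genes, and not every one lies in a domain. Those of Ndrg4 spread from 95676724 to 95703105 on chromosome 8 (GRCm38.p6), and its domain had 3111 bp. Some also overlap each other, as at Chd5. The 20.7% is thus not a share of promoters inside domains.

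Domains were wider in miR-93-5p than in scr, as their choice by width in miR-93-5p favours. Width in miR-93-5p ran from 3000 to 21669 bp with a median of 3689 bp, and the scr H3K9me3 peaks under a domain summed to between 568 and 21182 bp with a median of 2766 bp. The domains covered 5.44 Mb in miR-93-5p, and the summed scr widths came to 3.95 Mb. That sum counts 13 scr peaks under 2 or more domains more than once. The median log2 ratio of domain width to summed scr width was 0.49 (quartiles 0.16 and 0.93), and 1091 domains (87.2%) were wider in miR-93-5p while 160 were narrower. At least 2-fold wider were 283 domains (22.6%), beside 9.66% of all 11094 shared peaks, and at least 2-fold narrower were 2 (0.160%), beside 2.64%. These shares follow from the rule and support nothing.

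**Figure D1:**
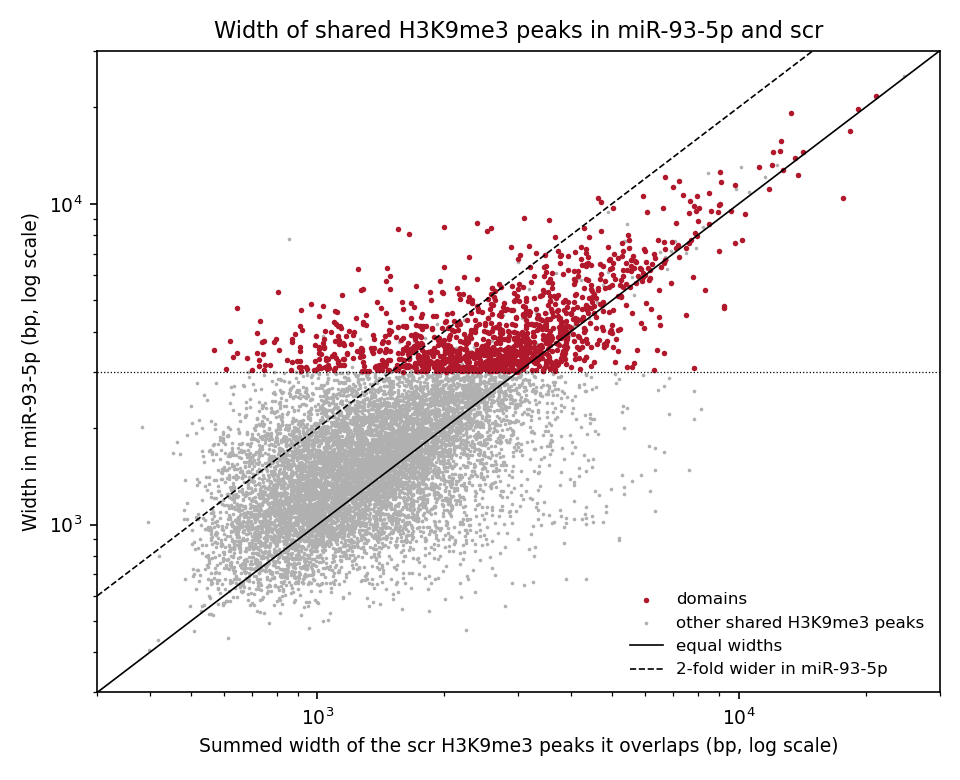
Width of each shared H3K9me3 peak in miR-93-5p (vertical axis, bp) against the summed width of the scr peaks it overlaps (horizontal axis, bp), both on log scales, with domains in red, other shared peaks in grey and the 3000-bp limit dotted. Of the 1251 domains, 1091 lie above the line of equal widths and 283 on or above the 2-fold line, and domains of at least 10000 bp have a median log2 ratio of 0.29.

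The ratio was not the same when the rule was turned round. Domains chosen in the same way by their width in scr numbered 559, with a median log2 ratio of 0.12 for miR-93-5p over scr and 363 (64.9%) wider in miR-93-5p. When the peaks of both lists were joined into regions and chosen by the mean of their widths, 1061 regions had a median of 0.35, and 856 (80.7%) were wider in miR-93-5p. The median was above 0 under all 3 choices. In narrow shared peaks of at least 2000 bp it was 0.44, in those of 1000 to under 2000 bp 0.20, and in those under 1000 bp -0.15. At the limit, the 5 narrowest domains had 3000, 3000, 3000, 3003 and 3006 bp in miR-93-5p with 2981, 1592, 2021, 2937 and 2219 bp in scr. The 5 peaks just under it had 2996, 2996, 2997, 2997 and 2997 bp with 2634, 2705, 2207, 2387 and 3434 bp in scr.

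Of the bp in domains, 67.6% were inside scr peaks, 29.3% lay beyond the outermost scr peak and 3.10% lay between scr peaks of 1 domain. On both sides 762 domains (60.9%) reached beyond scr, 410 (32.8%) did so on 1 side and 79 (6.31%) on neither. Most domains, 916 (73.2%), stood on 1 scr peak, with a median log2 ratio of 0.55, 277 on 2 scr peaks, with 0.33, and 58 on 3 or more, with 0.26. Domains on 1 scr peak can hold added width only beyond its edges.

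The ratio was lower in the widest domains. Domains of 3000 to under 4000 bp numbered 765 (61.2%) with a median log2 ratio of 0.49, those of 4000 to under 6000 bp 337 with 0.54, those of 6000 to under 10000 bp 121 with 0.40, and those of at least 10000 bp 28 with 0.29. At least 2-fold wider in these classes were 175, 87, 19 and 2 domains. The authors' peak score, which was not compared between libraries as signal, had a median of 427.22 over domains and of 122.53 over narrow shared peaks, within the miR-93-5p list. A score of at least 1000 was given to 120 domains and to 2 narrow shared peaks.

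Of the 28 domains of at least 10000 bp, 9 lay on a zinc finger gene, 5 on other protein-coding genes alone and 14 on no protein-coding gene. The widest (mm9 chromosome 7, 30931483 to 30953151) measured 21669 bp in miR-93-5p against 21182 bp in 4 scr peaks and covered 81.1% of the locus of Zfp146, a zinc finger gene. On chromosome 17, domains over the zinc finger genes Zfp943 (22118073 to 22137771), Zfp758 (22501888 to 22518799) and Zfp942 (22060358 to 22074254) measured 19699, 16912 and 13897 bp in miR-93-5p against 19160, 18414 and 13635 bp in scr. A domain of 19179 bp against 13271 bp in scr overlapped the 3′ ends of Zfp12 and Zfp316 on chromosome 5 (144008451 to 144027629). A domain of 14640 bp against 12515 bp lay on Zfp180 on chromosome 7 (24880254 to 24894893). Thus 6 of the 10 widest domains lay on a zinc finger gene. Another of 15644 bp against 12598 bp lay on Gstt2 and Gstt4, glutathione transferase genes, on chromosome 10 (75282473 to 75298116), and the remaining 3 lay on no protein-coding gene.

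By the rule, the largest ratios belong to domains on short scr peaks. A domain on chromosome 10 (16784111 to 16788861) had 4751 bp in miR-93-5p against 644 bp in scr, 7.38-fold, and a domain near the start of chromosome 11 (3000022 to 3005346) had 5325 against 805 bp, 6.61-fold. Domains on chromosome 5 (105255908 to 105259400), in Rgl1 on chromosome 1 (154480046 to 154483773) and on chromosome 13 (103461234 to 103465560) were 6.15-, 6.00- and 5.91-fold wider. The scores of the scr peaks under these 5 domains lay between 50.24 and 139.48, and the median over all domains of the highest scr score was 186.70. At the other end, a domain on chromosome 11 (20315595 to 20318665) had 3071 bp in miR-93-5p against 7825 bp in scr, a log2 ratio of -1.35, and a domain in Podxl on chromosome 6 (31480811 to 31483850) had 3040 against 6289 bp, a log2 ratio of -1.05. A domain in Lipc, which encodes hepatic lipase, on chromosome 9 (70683827 to 70687246) had 3420 against 6635 bp. A pair of domains on chromosome 17 (22856429 to 22861167 and 22861222 to 22866016) had 4739 and 4795 bp and shared 1 scr peak of 9220 bp, so their ratios count that peak more than once.

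The highest scores in miR-93-5p were 3218.15, for a domain of 9733 bp on Habp4 (chromosome 13, 64265517 to 64275249), and 3129.15, for a domain of 9672 bp on chromosome 6 (37631519 to 37641190). The score 3100.00 stood for 3 domains, on Zfp777 (chromosome 6, 47971413 to 47979116), on Zfp697 (chromosome 3, 98228154 to 98235597) and on no protein-coding gene (chromosome 17, 39979764 to 39984202). The last also had 3100.00 in scr, the highest score of that list, and repeat content at this domain was not analysed here.

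Few domains carried another mark. A scr H3K27me3 peak overlapped 67 domains (5.36%, 95% Clopper-Pearson interval 4.17 to 6.75%, counting error only), beside 4.89% of all miR-93-5p H3K9me3 peaks and 5.12% of narrow shared peaks. A miR-93-5p H3K27me3 peak overlapped 48 (3.84%, 2.84 to 5.06%), beside 3.69% of all peaks and 3.25% of narrow shared peaks. Domains are longer than other peaks and so have more room for an overlap. By length, scr H3K27me3 peaks covered 1.99% of domain bp and 2.84% of the bp of narrow shared peaks, and miR-93-5p H3K27me3 peaks covered 0.759% and 1.03%. The mark was on 26 domains in both conditions, on 22 in miR-93-5p alone, on 41 in scr alone, and on 1162 in neither.

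A miR-93-5p H3K4me3 peak overlapped 13 domains (1.04%, 0.554 to 1.77%), beside 1.56% of all miR-93-5p H3K9me3 peaks and 0.342% of narrow shared peaks. The rule removed scr H3K4me3, so these 13 are domains with H3K4me3 in miR-93-5p alone, and the H3K4me3 covered 0.127% of domain bp. Among them are the widest domain, over Zfp146, and a domain over the start of Aqp5, a water channel gene (chromosome 15, 99419364 to 99422508). The H3K4me3 peak shared only 4 bp with the Zfp146 domain and 45 bp with the Aqp5 domain, against up to 1326 bp among the 13. The Aqp5 domain had 3145 bp in miR-93-5p and 2995 bp in scr. Aqp5 had 43.7 FPKM in miR-93-5p (bounds 40.9 to 46.6) and 4.76 in scr (3.91 to 5.60). No locus of the mutant library matched it, so it was not among the genes compared, and it was named after its values were seen. The median distance to the nearest scr H3K4me3 peak was 30.80 kb for domains and 40.74 kb for narrow shared peaks, and 173 domains (13.8%) lay within 5 kb of one against 9.51% of narrow shared peaks.

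Most domains lay outside protein-coding genes. A protein-coding gene locus was overlapped by 474 domains (37.9%), and 435 (34.8%) had their midpoint in one, against 29.3% of narrow shared peaks and 29.0% of all miR-93-5p H3K9me3 peaks. Together the domains overlapped 420 of 18467 protein-coding symbols, 2.27%.

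Among gene classes set by symbol, zinc finger genes had the most members on domains. Domains overlapped 65 of 376 zinc finger genes (17.3%), beside 2.27% of all protein-coding symbols. A zinc finger gene held the midpoint of 71 domains (5.68%), beside 1.22% of all miR-93-5p H3K9me3 peaks and 1.08% of narrow shared peaks. Members include Zfp146, Zfp316, Zfp809, which encodes a protein that binds the primer binding site of proviruses, and Zfp445. The 74 domains on them had a median width of 4870 bp in miR-93-5p and of 3996 bp in scr, against 3695 and 2857 bp for the 400 domains on other protein-coding genes alone. Their median log2 width ratio was 0.31 against 0.47, 8 of 74 (10.8%) were at least 2-fold wider against 82 of 400 (20.5%), and 9 (12.2%) reached 10000 bp against 5 (1.25%). A scr H3K27me3 peak lay on 0 of the 74 and on 27 of the 400 (6.75%).

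Beside the same 2.27%, domains overlapped 0 of 839 olfactory receptor genes, 0 of 184 vomeronasal receptor genes, 0 of 95 cytochrome P450 genes, 0 of 58 serpin genes, 0 of 55 defensin genes and 0 of 24 clustered protocadherin genes. Of 24 killer lectin receptor genes, 1 was overlapped (Klrb1c), and families of this size are too small to set against that share. Peaks of any width also fell rarely on olfactory receptor genes, with 3 midpoints among 25879 peaks.

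Domains lay at the 3′ end of zinc finger genes and nearer the start of other genes. Of 52 zinc finger genes on domains with a strand in the promoter table, 35 (67.3%) had their 3′ end in a domain and 5 (9.62%) their 5′ end. Of 272 other genes, 44 (16.2%) had the 3′ end and 83 (30.5%) the 5′ end in a domain. As the class was set by symbol, zinc finger genes with other symbols count as other genes. Rbak is 1 of them, with its 3′ end in a domain. On a scale of 0 at the start and 1 at the end of the gene, domain midpoints inside zinc finger genes had a median of 0.81, and those inside other genes 0.32. Zinc finger genes are shorter, with a median length of 18.43 kb against 77.94 kb, so a domain covers more of each. Past the middle of the gene lay 51 of 62 midpoints (82.3%) for zinc finger genes and 106 of 322 (32.9%) for other genes. Of 86 midpoints of narrow shared peaks in zinc finger genes, 59.3% did so, and of 2185 in other genes 875 did. Narrow shared peaks thus leaned the same ways. Domains and narrow shared peaks both leave out peaks on scr H3K4me3, so neither could lie on a start with that mark. In all 3 libraries an RNA-seq locus matched 67.7% of zinc finger genes on domains and 38.9% of other genes on domains. How far the rule set these positions was not tested.

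**Figure D2:**
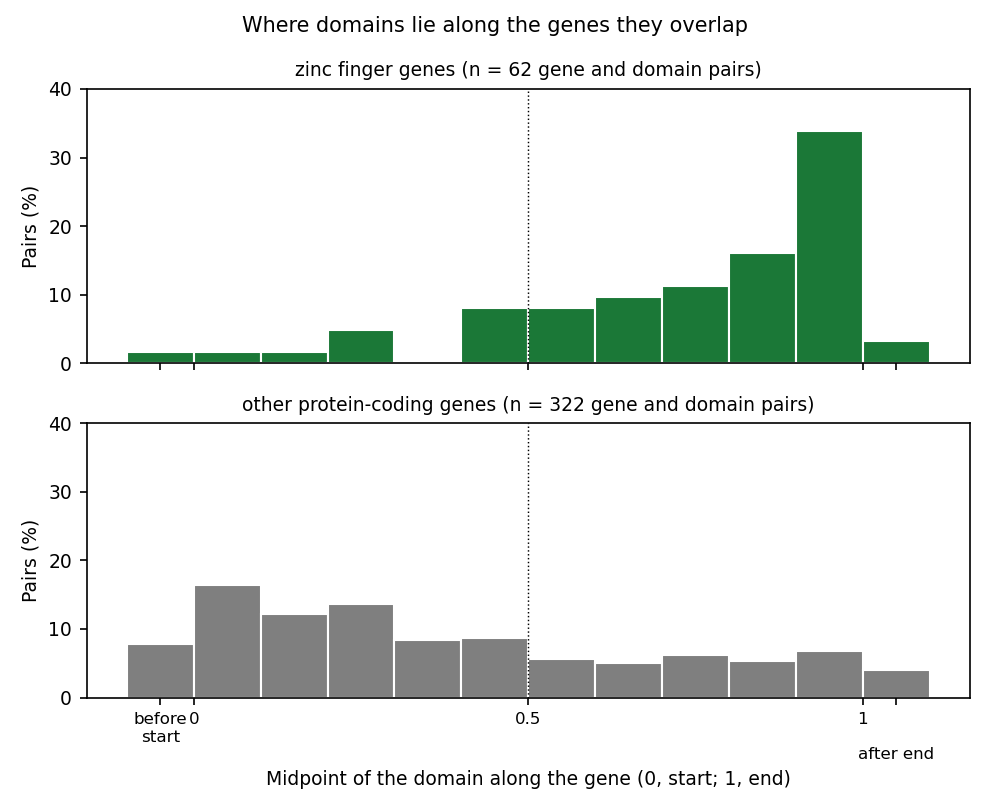
Position of domain midpoints along the genes they overlap, from the start (0) to the end (1), as a percentage of gene and domain pairs (bars), for zinc finger genes (top, 62 pairs) and other protein-coding genes (bottom, 322 pairs). For zinc finger genes 82.3% of midpoints lie past the middle, marked by the dotted line, and for other genes 32.9%.

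Several domains sat on imprinted genes. Of 18 genes of an imprinted list with a locus, 6 were overlapped, by 9 domains, beside 2.27% of all protein-coding symbols. At 5 of the 6 genes the widest domain had 0.877 to 1.17 times its width in scr. On Mest, which encodes a hydrolase (chromosome 6, 30684432 to 30691254), the domain measured 6823 bp in miR-93-5p against 7231 bp in scr. A second domain there (30681065 to 30684333) measured 3269 against 848 bp, 3.85-fold wider. The scr peak of 848 bp counts under both Mest domains, and 410 bp of it lay in the second. Scores at the second were 89.04 in miR-93-5p and 52.09 in scr. On Inpp5f, a phosphatase gene (chromosome 7, 135827430 to 135834095), the domain measured 6666 against 6695 bp. On Peg10, a retrotransposon-derived gene (chromosome 6, 4695603 to 4699597), it measured 3995 against 3902 bp, and on the receptor gene Igf2r (chromosome 17, 12887711 to 12890724) 3014 against 3437 bp. On Plagl1, which encodes a transcription factor (chromosome 10, 12807511 to 12812909), it measured 5399 against 4623 bp. Outside the list, and named after its values were seen, the domain over the start of Nap1l5 (chromosome 6, 58854264 to 58861864) measured 7601 bp in miR-93-5p against 6642 bp in scr.

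Grb10, which encodes an adaptor protein that restrains growth, carried 3 domains on chromosome 11. They measured 9874 bp in miR-93-5p against 7851 bp in scr (11920696 to 11930569), 6259 against 1251 bp (11914024 to 11920282), 5.00-fold wider, and 3824 against 1592 bp (11887209 to 11891032), 2.40-fold wider. Its mRNA stood at 23.4 FPKM in miR-93-5p, 34.2 in mutant and 32.5 in scr. Igf2r had 9.62, 9.38 and 12.9 FPKM and Inpp5f 4.88, 5.03 and 5.57. No locus matched Mest, Peg10 or Plagl1 in any of the RNA-seq libraries.

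Starts of developmental regulators were also in domains. Homeobox genes, which encode transcription factors that set cell and body plan identity, were counted by symbol, a class added after the values were seen. The symbols do not take in every homeobox gene, and Otp, Lbx1 and Zfhx3, also on domains, were not counted. Domains overlapped 15 of 154 (9.74%), beside 2.27% of all protein-coding symbols, and the start of 11 of the 101 with a strand (10.9%) lay in a domain, against 88 of 14788 protein-coding genes (0.595%). The 11 were Cdx2, Dbx1, Emx1, Gsx1, Hmx3, Lhx1, Nkx2-1, Nkx2-4, Nkx6-1, Nkx6-2 and Tlx3. By the rule a start under a scr H3K4me3 peak could not lie in a domain, which lowers the share over all protein-coding genes. Genes without scr H3K4me3 at their start were not compared separately, so no enrichment is read from these shares. Of the 15 domains on the homeobox genes counted, 0 overlapped a miR-93-5p H3K27me3 peak and 2 a scr H3K27me3 peak.

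At these starts the log2 width ratio was lowest at Emx1, at 0.02, and highest at Tlx3, with a median over the 15 homeobox domains of 0.44 beside 0.49 over all domains. Cdx2, a regulator of intestinal identity, had a domain of 4096 bp in miR-93-5p against 3625 bp in scr (chromosome 5, 148115526 to 148119621). Nkx2-1, a regulator of lung and thyroid, had 4961 against 3833 bp (chromosome 12, 57633810 to 57638770), and Lhx1, which acts in kidney and head formation, 6179 against 4054 bp (chromosome 11, 84335307 to 84341485). Tlx3, which acts in sensory neurons, differed most, with 4403 against 1663 bp (chromosome 11, 33100111 to 33104513). Outside the homeobox class, the start of the stem cell regulator Sox2 lay in a domain of 3053 bp against 2860 bp in scr (chromosome 3, 34547404 to 34550456). Of the 87 domains over a gene start, 1 (1.15%) overlapped a miR-93-5p H3K27me3 peak and 7 (8.05%) a scr one, against 47 (4.04%) and 60 (5.15%) of the other 1164 domains. Of the 15 counted homeobox genes on domains, 1 had an RNA-seq locus in all 3 libraries, and of all homeobox genes counted 35 did.

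Domains were uneven over chromosomes. Chromosomes 5 and 17 held 134 each (10.7%), chromosome 6 held 129 (10.3%), 19 held 97 and 13 held 96. Chromosome X held 4, chromosome 14 held 7, 12 held 10 and 4 held 13, and these 4 chromosomes together held 2.72% of domains, 7.78% of all miR-93-5p H3K9me3 peaks and 3142 of 18484 protein-coding loci. They also held 6.28% of scr H3K9me3 peaks, 4.52% of miR-93-5p and 5.18% of scr H3K27me3 peaks, and 15.3% of miR-93-5p and 15.4% of scr H3K4me3 peaks. Of the shared peaks without scr H3K4me3, 21.1% were domains on chromosome 19 and 16.4% on chromosome 17, against 4.74% on chromosome 12 and 5.15% on chromosome 14. The median log2 width ratio was lowest on chromosome 17, at 0.16, and highest on chromosome 16, at 0.70.

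**Figure D3:**
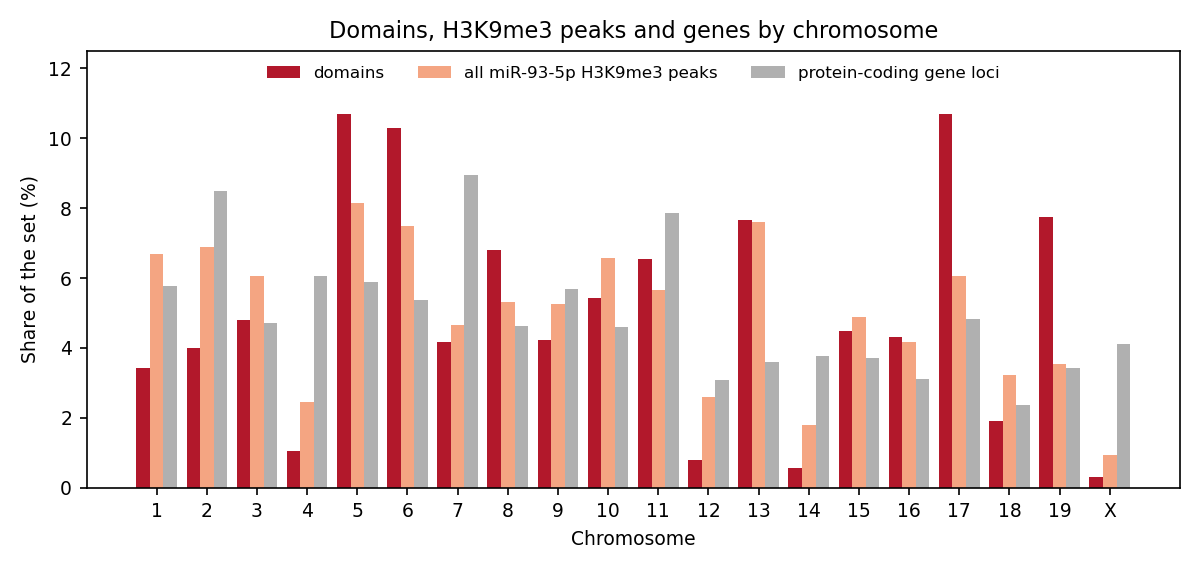
Share of domains (red), of all miR-93-5p H3K9me3 peaks (orange) and of protein-coding gene loci (grey) on each chromosome, in percent of each set. Chromosomes 5, 6 and 17 each hold over 10% of the domains, and chromosomes 4, 12, 14 and X together hold 2.72%.

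Nearly 1 in 2 domains lay in a cluster, a chain of at least 5 domains with gaps of at most 1 Mb. There were 68 clusters with 613 domains (49.0%), the 12 largest held 228 (18.2%), and 232 domains (18.5%) had no other domain within 1 Mb. The number in clusters follows how many domains a rule admits, with 52 of 248 at a limit of 5000 bp and 2732 of 3488 at 2000 bp. No share for other H3K9me3 peaks stands beside it, so clustering is not read as a trait of domains. The median log2 width ratio was 0.50 in clusters and 0.49 outside them. At least 1 zinc finger gene on a domain was found in 15 clusters and 3 or more in 6, which held 63 domains (5.04%), so most clusters were not zinc finger clusters.

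The cluster with most domains lay on chromosome 17 (21161811 to 24454936), with 29 domains in 3293 kb. It holds 23 zinc finger genes, of which 10 were on domains: Zfp13, Zfp160, Zfp40, Zfp758, Zfp942, Zfp943, Zfp944, Zfp945, Zfp946 and Zfp948. H3K9me3 peaks covered 9.74% of it in miR-93-5p and 8.98% in scr, the median log2 width ratio was 0.03, and 1 domain was at least 2-fold wider. A zinc finger cluster on chromosome 9 (21955409 to 23006673) differed from it. Its 12 domains, over Zfp599, Zfp809, Zfp810 and Zfp872, had a median log2 width ratio of 1.20, 7 were at least 2-fold wider, and H3K9me3 covered 11.5% in miR-93-5p and 5.38% in scr. Clusters were seen before being compared, so this is a description.

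The next clusters by size held no zinc finger gene. On chromosome 19 (53122806 to 58699162) 27 domains, the widest of 7624 bp against 6940 bp in scr, lay among genes that include the adrenergic receptor genes Adra2a and Adrb1. On chromosome 6 (50389914 to 54791026) 23 domains included 8395 bp on Hoxa10, a homeobox gene of the posterior body, against 4288 bp in scr. On chromosome 5 (147507775 to 151731059) 21 domains included those over the starts of Cdx2 and Gsx1, and the widest, on Katnal1, which encodes a microtubule-severing protein, had 6690 bp against 4914 bp in scr.

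The densest of the 12 largest clusters was on chromosome 6 (37420690 to 38027094), with 27 domains in 606 kb, or 44.5 per Mb. It holds 3 protein-coding genes, Akr1d1, which encodes a bile acid enzyme, Svopl and Trim24, and of these Trim24, a transcriptional cofactor gene, was on domains. H3K9me3 peaks covered 51.3% of the cluster in miR-93-5p and 28.4% in scr, the median log2 width ratio was 0.69 and 7 domains were at least 2-fold wider. Within it, 21 domains lay in 333 kb (37534127 to 37867008) where coverage was 70.4% in miR-93-5p and 41.4% in scr, and where neither H3K27me3 list had a peak. The widest domain there (37667596 to 37682101) had 14506 bp in miR-93-5p and 14218 bp in scr. Trim24 stood at 10.2 FPKM in miR-93-5p, 10.0 in mutant and 10.9 in scr.

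**Figure D4:**
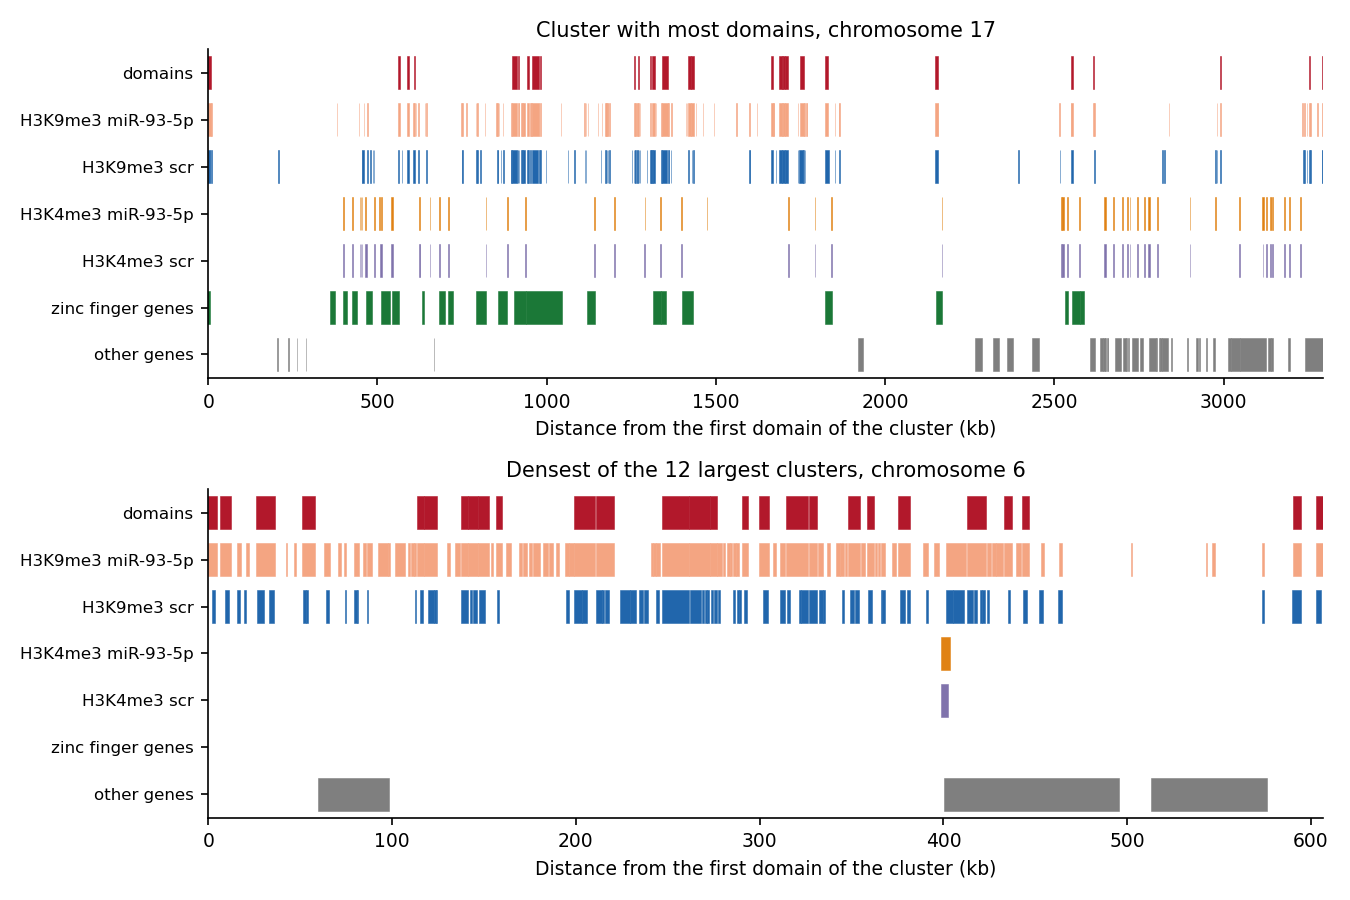
Maps of the cluster with most domains (top, chromosome 17) and of the densest of the 12 largest clusters (bottom, chromosome 6), with distance from the first domain in kb on the horizontal axis and, from the top, domains, H3K9me3 and H3K4me3 peaks of miR-93-5p and scr, zinc finger genes and other genes. On chromosome 17 H3K9me3 covers 9.74% in miR-93-5p and 8.98% in scr, and on chromosome 6 51.3% and 28.4%.

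Smaller clusters, chosen after their values were seen, showed both patterns. On chromosome 6 (149143426 to 149312108) 10 domains in 169 kb had a median log2 width ratio of -0.03, with H3K9me3 coverage of 69.1% in miR-93-5p and 65.8% in scr. On chromosome 16 (9015668 to 9240969) 9 domains had a median of 0.63, with 41.2% and 12.4%, and on chromosome 19 (32919526 to 33217948) 9 domains had 0.91, with 26.6% and 7.26%. The last 2 clusters held no protein-coding gene.

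Genes on domains had lower median levels than all genes compared. The rule leaves out peaks on scr H3K4me3, a mark of active promoters, and its part in these levels was not tested. In all 3 libraries a locus matched 43.3% of genes on domains, against 45.8% of all protein-coding loci. It matched 67.7% of the 65 zinc finger genes on domains, against 57.8% of all zinc finger loci. The 179 genes on domains that were compared had median levels of 11.4 FPKM in miR-93-5p and 10.00 in scr, against 15.8 and 15.6 FPKM over all 8425 genes compared. Within the zinc finger class the order was the other way. Zinc finger genes on domains had medians of 7.99 FPKM in miR-93-5p and 6.29 in scr, against 5.62 and 5.67 over all zinc finger genes. In bulk RNA, fewer cells that express a gene and less RNA per cell cannot be told apart.

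Genes on domains had a median log2 ratio of miR-93-5p over scr of 0.15, on FPKM with 1 added, against 0.03 over all genes compared. At least 2-fold higher in miR-93-5p were 12 of 179 (6.70%), beside 2.97% of all genes, and at least 2-fold lower were 6 (3.35%), beside 3.86%. In implied fragments, the fragment number that the FPKM bounds imply, the medians were 0.09 and 0.00. The measures can part widely for a gene: Itgb1 had a log2 ratio over scr of 0.09 in FPKM and 2.83 in implied fragments. Over the mutant, the median for miR-93-5p was 0.08 for genes on domains and 0.01 for all genes, with 5 genes on domains (2.79%) up by 2-fold or more, beside 1.85% of all genes, and 7 (3.91%) down by as much, beside 1.77%. The mutant over scr gave 0.10 for genes on domains and 0.01 for all genes. These 3 comparisons share libraries, and the balance of higher and lower genes differed between them. The 13 domains on the 12 higher genes had a median log2 width ratio of 0.43, the 6 on the 6 lower genes one of 0.20, the 197 on genes under 2-fold one of 0.41 and the 264 on genes not compared one of 0.50. With 6 domains on lower genes, no difference is read from these medians.

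**Figure D5:**
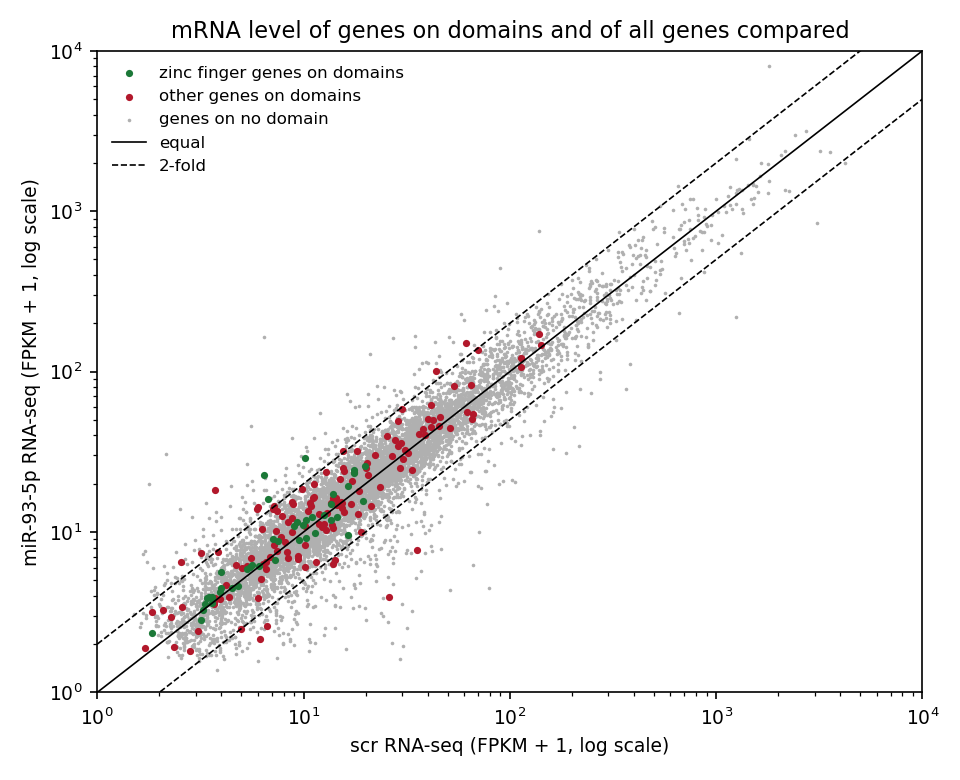
mRNA level in miR-93-5p (vertical axis) against scr (horizontal axis), as FPKM with 1 added on log scales, for zinc finger genes on domains (green), other genes on domains (red) and genes on no domain (grey), with lines for equal levels and 2-fold differences. Of the 179 genes on domains, 12 lie on or above the upper 2-fold line and 6 on or below the lower one.

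Among genes on domains, Enpp2, which encodes autotaxin, had 17.2 FPKM in miR-93-5p (bounds 16.0 to 18.4), 4.37 in mutant and 2.72 in scr (2.31 to 3.14), a log2 ratio over scr of 2.29. Its implied fragments gave 2.16, and its domain measured 3792 bp in miR-93-5p and 2806 bp in scr. Atg10, an autophagy gene, had 5.48, 2.85 and 1.56 FPKM, and Aplp2, a relative of the amyloid precursor gene, had 149, 136 and 60.2. Over scr, Atg10 had a log2 ratio of 1.34 in FPKM and 1.60 in implied fragments, and Aplp2 1.29 and 0.34.

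The 3 zinc finger genes that were at least 2-fold higher in FPKM were not higher in implied fragments. Zinc finger genes have near-identical relatives, and how fragments shared between them were counted is not given in the sources used here, so their levels are uncertain. Zfp945 had 21.7 FPKM in miR-93-5p, 16.9 in mutant and 5.47 in scr, with log2 ratios over scr of 1.81 in FPKM and -0.99 in implied fragments. Zfp938 had 27.9, 9.66 and 9.12 FPKM, with ratios of 1.51 and -1.09, and Zfp865 had 15.1, 3.08 and 5.71 FPKM, with 1.27 and -0.31. Over the zinc finger genes on domains the median was 0.14 in FPKM (43 genes) and -0.05 in implied fragments (41 genes), against 0.05 and 0.06 over all zinc finger genes compared. So the direction for this family turned with the measure.

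The 6 lower genes were lower in both measures. Ddah1, which encodes an enzyme that degrades asymmetric dimethylarginine, had 6.69 FPKM in miR-93-5p (6.19 to 7.20), 14.6 in mutant (13.9 to 15.2) and 34.4 in scr (33.2 to 35.6), a log2 ratio of -2.20, and -2.37 in implied fragments. Its domain measured 3882 bp in miR-93-5p and 3579 bp in scr. Chst8, a sulfotransferase gene, had 1.16, 2.38 and 5.12 FPKM, at -1.50 and -2.40. Prdm9, which encodes the histone methyltransferase that places meiotic recombination sites, had 1.58, 3.08 and 5.69 FPKM, at -1.37 in FPKM and -0.63 in implied fragments. The uncharacterised gene 1700016C15Rik had 2.95, 15.5 and 25.1 FPKM, at -2.72 and -0.53. Herc3 and the signal gene Wnt7b had log2 ratios over scr of -1.13 and -1.09.

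Some genes on domains were highly expressed in every library. Atxn10 had 171 FPKM in miR-93-5p, 193 in mutant and 138 in scr, with a domain over 2.68% of its locus. Itgb1, which encodes an integrin subunit, had 121, 117 and 113 FPKM with 7.61% of its locus in a domain, and Cd2ap, an actin adaptor gene, 105, 114 and 113. Zfp146, with 81.1% of its locus in the widest domain, had 24.9, 24.6 and 18.9 FPKM.

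Of 24 listed genes of the H3K9 machinery, 21 were compared, with a median log2 ratio of miR-93-5p over scr of -0.11 in FPKM. In FPKM 0 of them differed at least 2-fold, beside 6.82% of all genes compared. In implied fragments 4 passed 2-fold, beside 15.2% of all genes with that measure, with log2 ratios over scr of 3.75 for Trim28, 1.13 for Kdm3b, -4.92 for Ehmt2 and -5.74 for Daxx, against -0.32, 0.18, -0.24 and -0.15 in FPKM, so for these genes the measures part. The methyltransferase gene Suv39h1 had 45.4 FPKM in miR-93-5p, 43.6 in mutant and 31.9 in scr (0.50), Atf7ip, a cofactor of SETDB1, 8.93, 8.90 and 5.88 (0.53), and the demethylase gene Kdm4a 16.1, 17.1 and 24.2 (-0.56). Setdb1 had 16.5, 15.9 and 17.3 FPKM and Trim28 107, 141 and 135. For Suv39h1, Atf7ip and Kdm4a the mutant level lay nearer to miR-93-5p than to scr.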

How the data were processed

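Chromatin immunoprecipitation and RNA-seq libraries of LEPC cells were used, with 1 library for each assay and condition. The deposited peak lists give positions on mm9 and a score per peak, from 50.00 upward, for each library separately. The RNA-seq files hold FPKM for assembled loci, with low and high confidence bounds, per the file headers. TopHat2, Cufflinks, Cuffdiff, CASAVA 1.4, Bowtie and MACS are named, without settings, in the submitters' processing notes. Depth per library is not given in the sources used here.

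Domains were taken by the rule in the report. The width ratio is log2 of the domain width over the summed width of the scr H3K9me3 peaks it overlaps. Genes were 35228 mm9 loci listed in the series' files of mRNAs recovered with the microRNA, named through a gene table, of which 18484 were protein-coding. An RNA-seq locus was paired with a gene where the overlap was the best for both and made up at least 0.5 of their joint length. The genes compared had a locus in all 3 libraries and averaged 1 FPKM or more, and 1 FPKM was added. Implied fragments are the number whose counting error gives the deposited bounds, with at least 3 in each library and 10 added. Isoforms that share fragments widen the bounds too. Strand came from RefSeq promoters. Coordinates are 1-based mm9 unless GRCm38.p6 is named. The promoter table is on GRCm38.p6, and no coordinate was converted.

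The members, gene lists and alternatives were chosen with earlier results of these data known. Named were the 10 widest domains, the 5 with the largest and the 5 with the smallest ratio, the 5 highest scores, the widest of the 5 largest clusters and the genes on them, the most expressed genes and the 10 with the largest RNA-seq ratio, and up to 4 genes per class. Exact binomial intervals (95%) cover counting error only. Alternatives varied the width limit, the overlap, the H3K4me3 rule, the score, joining of peaks, the gap, the pseudocount and the gene match, and exchanged the 2 lists. The interval functions were tested on simulated data. Python 3.11.15 with pandas 2.3.3, numpy 2.4.6, scipy 1.17.1 and matplotlib 3.10.9 was used.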

Additional observations from a re-analysis of the deposited data

How the results depend on the processing

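Of 63 alternative values, 36 stayed near the reported one, 27 moved and 0 reversed. Most of these values are counts, which cannot change sign, so for them the absence of reversal was fixed beforehand. Near is a loose label here, as it took in 1790 domains against 1251, and 412 or 824 in clusters against 613. A width limit of 2000 bp gave 3488 domains, of which 698 were at least 2-fold wider, 267 had H3K27me3 in either condition (89 in the report's set), 113 lay on a zinc finger gene and 2732 lay in clusters, and a limit of 5000 bp gave 248, 47, 12, 36 and 52. With scr peaks required to cover at least 0.5 of the domain, the median log2 width ratio was 0.31, 398 domains lay in clusters and 0 were at least 2-fold wider, which that requirement nearly fixes. Joining peaks over gaps of at most 1000 bp gave a median of 0.67, 638 domains at least 2-fold wider, 148 with H3K27me3 and 1058 in clusters. Exchanging the H3K9me3 lists gave 559 domains, a median of 0.12, 55 at least 2-fold wider, 38 with H3K27me3, 44 on zinc finger genes and 183 in clusters. The median was 0.74 against the widest scr peak alone, and 0.35 for regions chosen by the mean of both widths, an alternative chosen after seeing the data. Implied fragments gave 37 genes on domains that differed at least 2-fold, against 18 in FPKM, and 0 of the 9 genes with at least 0.5 of their locus in domains did. The cause of these shifts was not tested, and the number of domains admitted also differed between the domain rules. No paired analysis was possible because every group had 1 library. With 1 library per condition, unknown depth and no mm9 genome, peak width in these lists cannot be told apart from peak calling depth, and repeat content was not analysed here.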
